A study of Mus musculus with 4 samples.

Results

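The potassium channel genes of the mouse were examined for N6-methyladenosine (m6A), a methyl mark on adenosines of RNA, in whole brain. Members were all protein-coding genes of GENCODE M21 whose symbol starts with Kcn, one or more letters from a to v and a digit. Kcnip genes and 1 Kcnj gene were left out by the rule. This gave 88 of 21951 protein-coding genes, in 19 subfamilies named by the letters after Kcn. The rule used symbols only and no measured value.

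In m6A-seq, fragmented mRNA is pulled down with an antibody against m6A and sequenced beside input RNA that did not pass the antibody. The series holds 2 m6A immunoprecipitation (IP) samples and 2 input samples of whole brain at 4 weeks of age. Both groups carry the same strain label, C57BL/6J, and the design text of the series names Prrc2a flox/flox mice. The labels name no Cre driver and no treatment, so the groups differ only in the antibody step. The labels call the molecule total RNA, and the protocol isolates poly(A) RNA from it. Each IP sample has a list of peaks with a fold enrichment, the linear ratio of IP over input given by the peak caller. The input samples enter only through that ratio. The study's methods call the replicates biological, and the labels do not say which animals they came from. The lists hold no read counts, so the depth behind each peak is unknown, and the label whole brain could not be checked against expression of marker genes. A gene without a peak may carry no mark or may be too little expressed for a call, and these cannot be told apart here. The library kit named in the protocol does not mark strand, so reads from overlapping antisense genes cannot be separated.

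Potassium channels set the resting potential of neurons and glia and end the action potential. Voltage-gated pores come from the Kcna, Kcnb, Kcnc, Kcnd, Kcnh and Kcnq genes, with Kcnf, Kcng, Kcns and Kcnv coding for silent subunits that modify Kcnb-type pores. Kcnj genes code for inward rectifiers, Kcnk genes for tandem-pore leak channels, and Kcnma, Kcnn, Kcnt and Kcnu genes for channels opened by calcium, sodium or pH. Kcnab, Kcne and Kcnmb code for auxiliary subunits. In mammalian mRNA the m6A mark is known to sit in a short motif around GGAC, often in long exons and near stop codons.

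Sites that related channel genes share were looked for first, since paralogs derive from a common coding sequence. Coding sequences of each subfamily were aligned, and the motif GGACT, in which the third base is the candidate adenosine, was searched on the transcript strand only. The search found 11 alignment columns at which 2 or more members of a subfamily held GGACT, and the columns were singled out after seeing where intervals lay. An interval is called shared when it holds the bases common to a replicate 1 peak and a replicate 2 peak. The next sequences are 25 nt of mRNA from 5′ to 3′ (mm10) with GGACT, or the letters aligned to it, in capitals. They are shown because GGACT at 1 aligned position was inside shared intervals of several inward rectifier genes.
Kcnj4 (chr15:79484774-79484798, minus strand): actacaaggtGGACTactcacgatt
Kcnj8 (chr6:142565855-142565879, minus strand): tgtactctgtGGACTattccaaatt
Kcnj9 (chr1:172323080-172323104, minus strand): tctatgaggtGGACTacgccagctt
Kcnj11 (chr7:46098900-46098924, minus strand): gctattctgtGGACTactccaaatt
Kcnj5 (chr9:32317788-32317812, minus strand): tctatgaggtGGACTacaacacttt
Kcnj2 (chr11:111072790-111072814, plus strand): actataaagtAGACTattcaagatt
Kcnj12 (chr11:61070193-61070217, plus strand): agtacaagatTGACTattcacactt

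Among the inward rectifiers, 5 of 14 members held GGACT at 1 aligned position in the later part of the coding sequence. The adenosine was inside a shared interval in 4 of them. Of all GGACT in the coding sequences of members with intervals, 52.5% lay inside shared intervals, against 28.7% for all genes with intervals. Intervals covered 40.1% of all coding bases of these members, against 23.3% for all genes with intervals. Intervals are far longer than the motif, so a ratio belongs to the interval and not to this adenosine. Kcnj11 and Kcnj8 code for the pores of ATP-sensitive channels, and their intervals over the site had 3.8 and 2.46 (Kcnj11) and 4.75 and 3.64 (Kcnj8) in replicates 1 and 2. Over the site of Kcnj4, a strong inward rectifier, the values were 7.25 and 3.04. In Kcnj9, a subunit of G protein-gated channels, they were 5.51 and 3.3. The fifth, Kcnj5, is another G protein-gated subunit and had no exonic peak in either list. Kcnj2 and Kcnj12, strong inward rectifiers with AGACT and TGACT at the aligned position, were also inside shared intervals there, with 5.05 and 5.12 in Kcnj2 and 7.58 and 3.4 in Kcnj12. Kcnj3, Kcnj13 and Kcnj16 were inside intervals there without GGACT too, and Kcnj10 was not, so intervals at this position were found with and without the motif. The Kcnj9 interval also overlaps an antisense transcript. A second aligned GGACT was inside intervals of Kcnj10 (3.46 and 2.04), the main glial inward rectifier, and Kcnj4, while Kcnj1 held it without a peak. At that position Kcnj2, Kcnj3, Kcnj11, Kcnj12, Kcnj13 and Kcnj16 were inside shared intervals without GGACT.

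Of the 11 columns, 5 had at least 1 site inside a shared interval and 6 had none, and the difference between subfamilies was not tested. Each column holds several sites, so these counts differ in unit from the shares of single coding GGACT inside intervals. Those shares were 52.5% for members with intervals and 28.7% for all genes with intervals. Some sites in the columns with none belong to genes without any shared interval (Kcnh6, Kcnh8, Kcnk5 and Kcnk16). The columns with none were 3 of the Kcnk genes and 1 each of Kcnab, Kcnh and Kcnn. At the Kcnh column, Kcnh5 was inside a shared interval with GGATT in place of the motif (5.81 and 4.46). In Kcnk, GGACT stood at 1 aligned position of 5 members, shown next because none of the sites was inside a shared interval.
Kcnk1 (chr8:125995755-125995779, plus strand): attggaattgGGACTtcacctcggc
Kcnk6 (chr7:29232197-29232221, minus strand): accctgcgtgGGACTtcgcctcggc
Kcnk12 (chr17:87797099-87797123, minus strand): gcccgcgctgGGACTtccctggagc
Kcnk13 (chr12:99966221-99966245, plus strand): gccctcgctgGGACTtcacgggcgc
Kcnk16 (chr14:20265201-20265225, minus strand): ccagcaactgGGACTtcgggagcag
These sites lie in the earlier part of the coding sequence, with the adenosine at base 308 of the coding sequence in Kcnk1, 275 in Kcnk6, 344 in Kcnk12, 287 in Kcnk13 and 281 in Kcnk16. Replicate 1 alone had weak peaks over the sites of Kcnk1 (1.31) and Kcnk13 (1.65). Kcnk1, Kcnk6, Kcnk12 and Kcnk13 all had shared intervals elsewhere in their mRNA. A further aligned GGACT of Kcnk1, Kcnk5, Kcnk6 and Kcnk16, and another of Kcnk1 and Kcnk16, were inside no shared interval either. At both of these further positions Kcnk3, Kcnk12 and Kcnk13 were inside shared intervals without GGACT.

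Peaks over exons were found for 69 members in replicate 1 (78.4%, against 54.4% of all protein-coding genes) and for 65 in replicate 2 (73.9%, against 49.5%). A shared interval over an exon was found for 61 members (69.3%, against 45.6%). When both ratios had to reach 2 the count was 58 (65.9%, against 36.8%). At least 3 shared intervals were found for 37 members (42%, against 14.7%). These shares lay above those of all protein-coding genes in each replicate, and no test of the difference was made. The members had 185 of the 23901 shared intervals of the series. The median was 3 intervals per member with one, against 2 over all protein-coding genes with one. A long peak of one replicate can meet several peaks of the other, so intervals are not independent events.

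Intervals of a gene were ranked by the smaller of their pair of ratios, and the top one is called its strongest. This smaller ratio was above 4 in 10 members. The share of all protein-coding genes above 4 is not given here, so whether this count is high is unknown. At a limit of 2 the shares were 65.9% of members and 36.8% of all protein-coding genes. Kcnb2, a Kv2 delayed rectifier of neuronal cell bodies, had 7.07 in replicate 1 and 6.81 in replicate 2. It was followed by Kcnk13, a tandem-pore channel of microglia, with 5.69 and 5.35. Kcnh5, an ether-à-go-go channel, had 5.07 and 5.24. Kcnj2 was close to it with 5.05 and 5.12. In these 4 members the replicates were close, and the values of Kcnk13, Kcnh5 and Kcnj2 have no clear order beyond the spread between replicates. Kcnk6, another tandem-pore channel, had 5.3 and 4.46. Kcna6, an axonal Kv1 subunit, had 5.24 and 4.27. Kcnj3, a G protein-gated subunit, had 6.1 and 4.23. The smaller ratios of these genes differ by less than the replicates of any one of them. Kcnq5, a subunit of the neuronal M-current, had 8.05 and 4.22, the widest gap among the 10. Kcnn3, a small-conductance calcium-activated channel, had 4.21 and 4.2. Kcnu1, the pH-sensitive channel known from sperm, had 4.01 and 4.49 over its last exon. The 10 members come from 8 subfamilies, with a pair each from the inward rectifier and the tandem-pore genes.

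**Figure D1:**
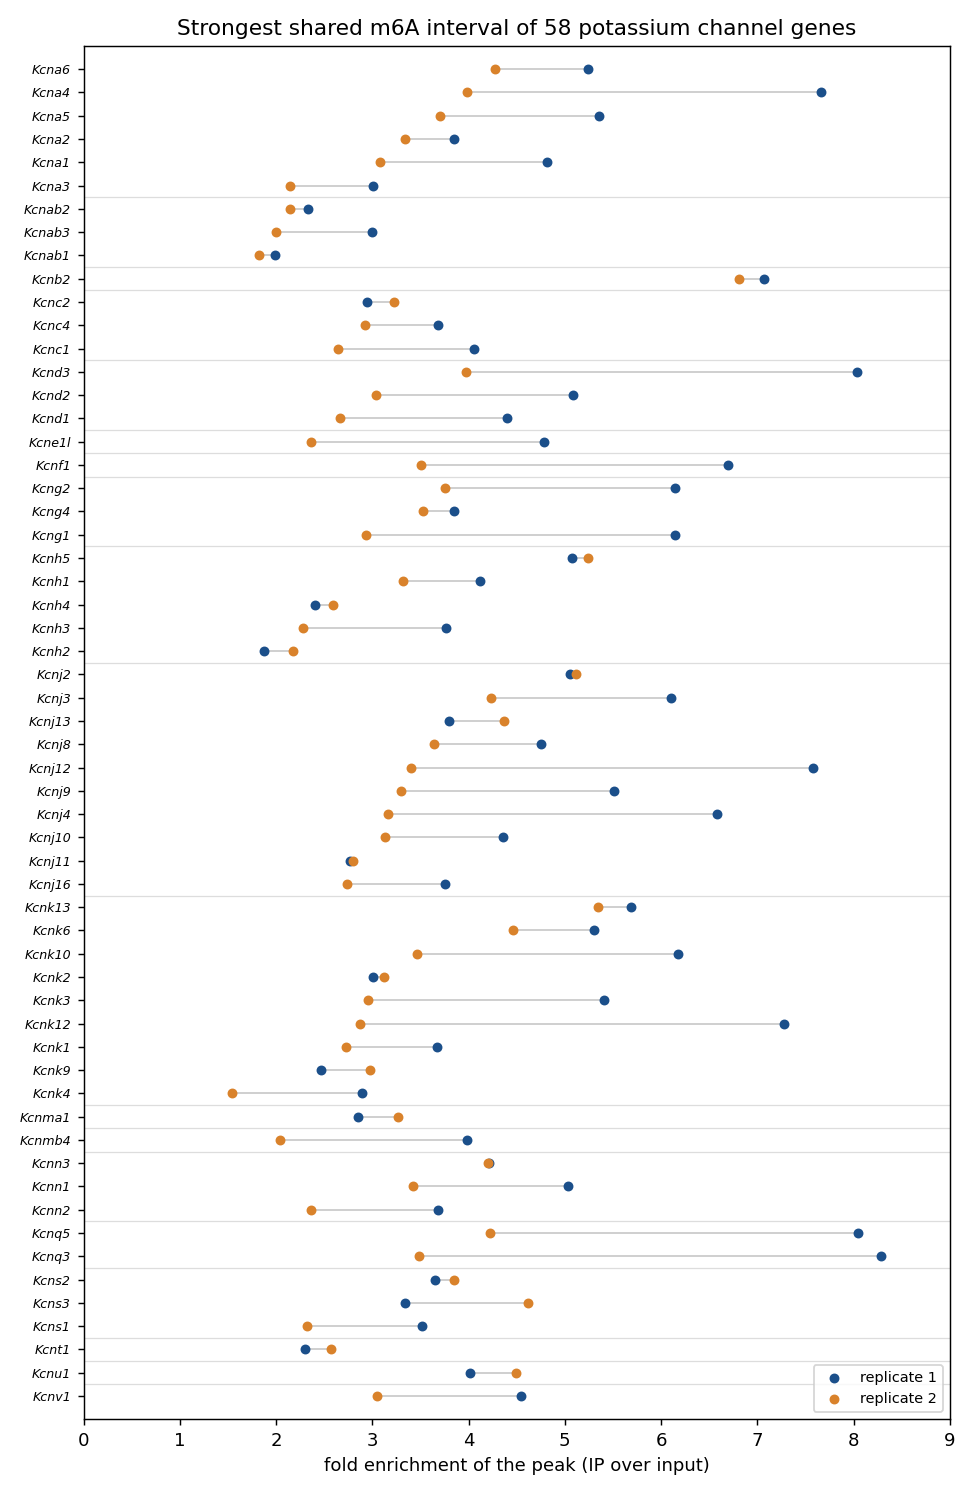
Fold enrichment (linear ratio of IP over input, x axis) of the strongest shared interval of 58 potassium channel genes with one, replicate 1 in blue and replicate 2 in orange, ordered within subfamilies by the lower value. Replicate 1 is the larger in 44 of the 58 genes, and the lower value is above 4 in 10 genes.

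GGACT was present in the strongest interval of 4 of these 10 members, and the shorter core GGAC in 5 more. Over intervals of all genes, 39.3% held GGACT and 76.7% held GGAC, with GGACT included. Weighted to the lengths of the member intervals, these shares were 48.4% and 84.6%, so such matches were common in intervals of any gene. The sequences show the copy closest to the middle of the interval in each.
Kcnb2 (chr1:15710728-15710752, plus strand): gctgtgccacGGACTtcacagagac
Kcnk13 (chr12:100061570-100061594, plus strand): atgccaaagaGGACTcctgcggtcc
Kcnk6 (chr7:29224400-29224424, minus strand): agagtggtcaGGACTgaggagtgga
Kcnq5 (chr1:21402237-21402261, minus strand): gactctctaaGGACTggaaggtcac
Kcnh5 (chr12:74897935-74897958, minus strand): tcttgtcggaGGACcccaagggca
Kcnj2 (chr11:111072628-111072651, plus strand): tgagtaagcaGGACattgacaatg
Kcna6 (chr6:126708586-126708609, minus strand): taactcagccGGACagcccctggt
Kcnn3 (chr3:89521272-89521295, plus strand): ctataagctgGGACacaggagggc
Kcnu1 (chr8:25937753-25937776, plus strand): tctatcctttGGACacgttagatg
The Kcnb2 adenosine is base 1835 of the coding sequence, counted from the A of the start codon, in an exon of 14266 nt. The sites of Kcnk6 and Kcna6 lie in the 3′ UTR and the others in coding sequence. The strongest interval of Kcnj3 held neither GGACT nor GGAC on the transcript strand of its representative mRNA. A match is a description of the interval and not a mapped methylation site.

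By subfamily, the delayed rectifier and A-type genes of the Kcna group had 6 of 8 members with shared intervals. The share was 69.3% over all members and 45.6% over all protein-coding genes, and no subfamily was tested against either. Kcna2 and Kcna6 had 5 intervals each, Kcna1 4, Kcna4 and Kcna5 2 each and Kcna3 1. Kcna7 and Kcna10 had no exonic peak in either list. In Kcna4, which codes for an A-type subunit, an interval of 1894 nt reached from the coding sequence over the stop codon, with 7.66 in replicate 1 and 3.98 in replicate 2. In Kcna1 and Kcna2, subunits of axonal delayed rectifiers, the strongest intervals had 4.81 and 3.08 (Kcna1) and 3.85 and 3.34 (Kcna2). The strongest interval of Kcna5 had 5.36 and 3.7, and that of Kcna3 3.01 and 2.14. Replicate 1 was higher in each of the 6 genes. Over all 19 Kcna intervals the ratio spanned 1.84 to 7.66 (replicate 1) and 1.43 to 4.27 (replicate 2).

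Of the other voltage-gated pores, Kcnb2 had 4 shared intervals. Kcnc1, Kcnc2 and Kcnc4, which code for Kv3 channels of fast-firing neurons, had 5 each. Kcnd3 had 6, Kcnd2 4 and Kcnd1 2, all coding for Kv4 channels of dendritic A-type current. These Kcnc genes thus had many intervals of modest ratio. Their strongest had 2.94 and 3.22 in Kcnc2, 3.68 and 2.92 in Kcnc4 and 4.06 and 2.64 in Kcnc1. Kcnd3 had a far larger value in replicate 1 (8.04) than in replicate 2 (3.97) over its stop codon.

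Kcnh genes had shared intervals in 5 of 8 members, beside 69.3% of all members and 45.6% of all protein-coding genes. Kcnh2, the ERG channel, had 3 intervals, the strongest with 1.87 and 2.18, well below Kcnh5. Kcnh6 and Kcnh8 had exonic peaks in replicate 1 only, and Kcnh7 had peaks in both lists with no base in common. Kcnq3 and Kcnq5, subunits of the M-current, had 3 and 6 intervals. Kcnq3 had the largest replicate 1 value of any member interval, 8.29, against 3.48 in replicate 2. Kcnq1, known from heart and inner ear, had no exonic peak.

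Silent subunits were covered in 8 of 10 genes, beside 69.3% of all members and 45.6% of all protein-coding genes. Kcnf1 had 2 intervals inside 1 replicate 1 peak of 6.7, with 3.51 and 2 in replicate 2. Kcng2 had 6.14 and 3.75, and Kcns2 had 3.65 and 3.85 in its strongest interval, so Kcns2 was among the members with near equal replicates. Kcnv1 had 4 intervals, the strongest with 4.54 and 3.05. Kcng3 had a replicate 1 peak only and Kcnv2 no exonic peak.

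Among the inward rectifiers 10 of 14 members had shared intervals, 30 in all, beside 69.3% of all members and 45.6% of all protein-coding genes. Kcnj9 and Kcnj10 had 5 each, Kcnj3 4, Kcnj2, Kcnj4, Kcnj11 and Kcnj16 3 each, Kcnj12 2, and Kcnj8 and Kcnj13 1 each. Kcnj14 had peaks in replicate 1 only, and Kcnj1, Kcnj5 and Kcnj15 had none. Kcnj10, the glial channel that clears potassium, had a strongest interval of 4.36 and 3.13 in its 3′ UTR. The interval of Kcnj13, a channel best known from epithelia, had 3.8 and 4.37 and overlaps an exon of Gigyf2 on the other strand, so its reads may come from either gene.

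Tandem-pore genes had shared intervals in 9 of 14 members, beside 69.3% of all members and 45.6% of all protein-coding genes. Kcnk1, Kcnk2, Kcnk9 and Kcnk12 had 3 each, Kcnk3 and Kcnk13 2 each, and Kcnk4, Kcnk6 and Kcnk10 1 each. Kcnk5, Kcnk7, Kcnk15, Kcnk16 and Kcnk18 had no exonic peak. Kcnk10, a mechanosensitive leak channel, had 6.18 and 3.46 over its stop codon. Kcnk12 had 7.28 and 2.87, more than double in replicate 1. The acid-sensitive channels Kcnk3 and Kcnk9 had 5.41 and 2.95 and 2.47 and 2.98 in their strongest intervals. The interval of Kcnk4 (2.89 and 1.54) overlaps an exon of Catsperz on the same strand and cannot be assigned to either gene.

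Calcium-activated and related channels differed in number of intervals. Kcnma1, the BK channel, had 7 shared intervals whose ratios spanned 1.43 to 4.43 (replicate 1) and 1.33 to 3.27 (replicate 2), and the strongest had 2.85 and 3.27. Of the 7, 2 could be placed on its representative transcript. Kcnn1 had 5.03 and 3.42, and Kcnn2 3.68 and 2.36 (over an antisense transcript), while Kcnn4, known from blood cells and epithelia, had no exonic peak. Kcnt1, a sodium-activated channel, had 4 intervals, the strongest with 2.3 and 2.57, and Kcnt2 had replicate 2 peaks only.

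Of 12 auxiliary Kcnab, Kcne and Kcnmb genes, 5 had a shared interval, a share near the 45.6% of all protein-coding genes. All 3 Kcnab genes, which code for the beta subunits of Kv1 channels, had one, with a median ratio over their 9 intervals of 2.13 in replicate 1 and 1.82 in replicate 2. Their strongest values were 2.33 and 2.14 in Kcnab2, 3 and 2 in Kcnab3 and 1.99 and 1.82 in Kcnab1. Kcne1l had 4.78 and 2.36, and Kcnmb4, the BK subunit of neurons, had 3.98 and 2.04, in an interval that overlaps an antisense transcript. Kcne1, Kcne3, Kcnmb1 and Kcnmb3 had no exonic peak, and Kcne2, Kcne4 and Kcnmb2 had peaks in 1 list only.

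Members without any exonic peak numbered 17. They were Kcna7, Kcna10, Kcne1, Kcne3, Kcnj1, Kcnj5, Kcnj15, Kcnk5, Kcnk7, Kcnk15, Kcnk16, Kcnk18, Kcnmb1, Kcnmb3, Kcnn4, Kcnq1 and Kcnv2. Another 10 members had peaks but no shared interval. For comparison, 69.3% of members and 45.6% of all protein-coding genes had a shared interval. The strongest exonic peaks found in 1 replicate only were those of Kcnk6 (4.74, replicate 1), Kcnh7 (3.83, replicate 1, and another of 3.77, replicate 2), Kcne4 (3.55, replicate 2) and Kcnq5 (3.35, replicate 1). The Kcnh7 peaks lay apart, in the 3′ UTR and in a coding exon.

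Where the intervals lay along the mRNA was read on 1 representative transcript per gene, chosen for its longest coding sequence (CDS), and by the midpoint of the interval. Of the 185 intervals 164 could be placed. The CDS held 54.3% of them (95% Wilson interval 46.6 to 61.7), against 61.8% for all protein-coding genes. The 3′ UTR held 34.8% (27.9 to 42.3), against 28.9%. The 5′ UTR held 11% (7.06 to 16.7), against 9.26%. Of the 89 CDS intervals, 39 (43.8%) had their midpoint in the last 25% of the CDS, against 31.9% over all genes. Wilson intervals here cover counting error only, and intervals of 1 gene are not independent.

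Coverage of the stop codon was common among these genes, while midpoints close to it were not. A shared interval covered the stop codon in 49 of the 61 members with one (80.3%, 68.7 to 88.4), against 51.4% of the 9948 protein-coding genes with an interval and a representative transcript. Midpoints within 200 nt of the stop codon made up 17.1% of placed intervals (12.1 to 23.6), against 23% over all genes. Intervals of members were longer, with a median of 364 nt of exon against 273 nt. When the intervals of all genes were weighted to the length classes of the member intervals (200 nt each), the share over the stop codon was 31.4%, against 28% for the members and 24.3% without weighting. Members also had more intervals per gene. The share of genes was thus above that of all genes, while the share of intervals at equal length was not. All 6 Kcna genes with intervals, all 3 Kcns and all 3 Kcng genes with intervals were covered at the stop codon. Among the 12 members with intervals but none there were Kcnab1, Kcnab3, Kcnc2, Kcnd1, Kcne1l, Kcnh5, Kcnj10, Kcnk6, Kcnk9 and Kcnn3. The start codon was covered in 19 of the 61 (31.1%, 20.9 to 43.6), against 22.5% over all genes.

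**Figure D2:**
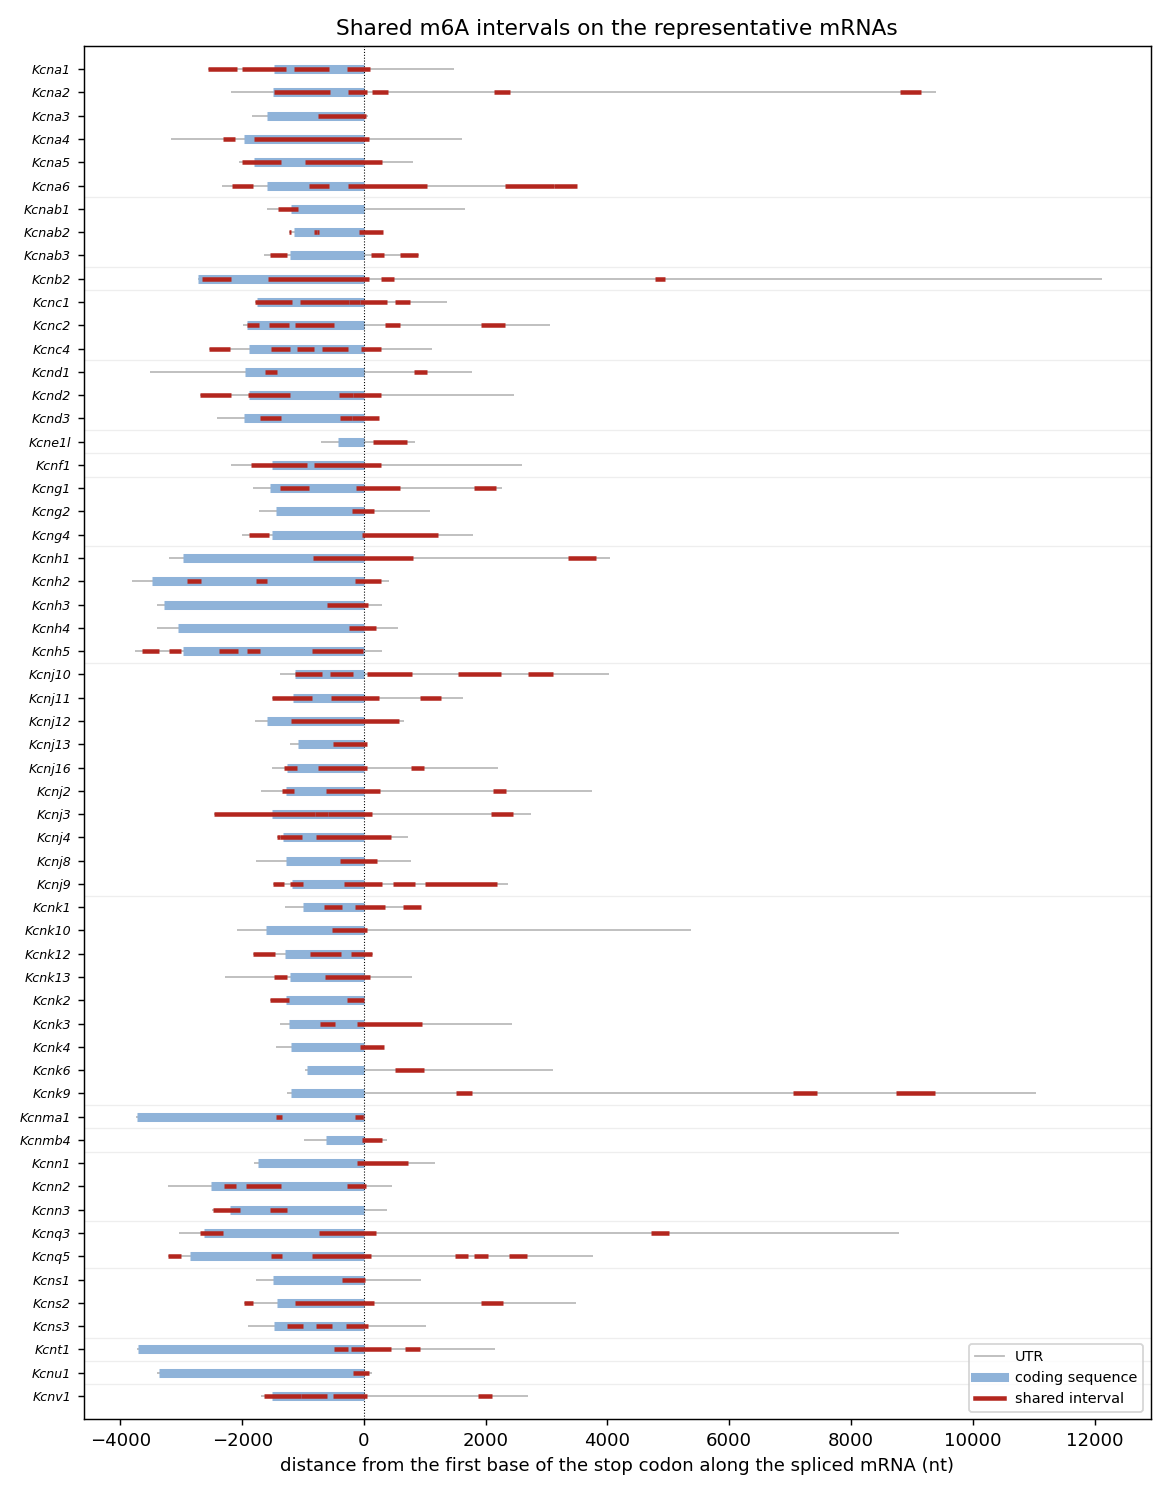
Shared intervals (red) on the spliced representative mRNAs of 58 potassium channel genes, aligned at the first base of the stop codon (x axis, nt, dotted line), with coding sequence in blue and UTRs in grey. In 48 of them an interval crosses the stop codon, and intervals far into the 3′ UTR are seen in Kcna2, Kcnk9, Kcnq3 and others.

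Many intervals of the 3′ UTR lay far from the stop codon. The median distance of the 57 member midpoints was 927 nt, against 271 nt over all genes, and 27 (47.4%) lay more than 1000 nt away, against 21.2%. The 27 belonged to 19 members, whose subfamilies span voltage-gated, inward rectifier and tandem-pore channels. The median 3′ UTR of members with intervals was 1471 nt, against 1140 nt for all such genes. Kcnk9 had midpoints 7245 and 9055 nt after the stop codon, the latter the farthest of any member. Their ratios were 2.47 and 2.98, and 3.74 and 1.92. Kcna2 had an interval 8975 nt after the stop codon with 3.85 and 2.92. Kcnq3 had one at 4863 nt with 3.03 and 2.32. In Kcnh1, an ether-à-go-go channel, the strongest interval lay 3580 nt after the stop codon, with 4.12 and 3.32. In Kcna6 and Kcnj3 the strongest interval of the gene was a distal one too. In replicate 1, however, the interval over the stop codon was higher in Kcna6 (6.33 against 5.24) and Kcnh1 (5.43 against 4.12). The rank of the distal interval in these genes thus rests on replicate 2.

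Intervals of the members were read by exon length next. Among the 61 members with intervals, 55 of 57 exons over 1000 nt held a shared interval (96.5%, against 83.9% over all genes). Exons over 400 and up to 1000 nt held one in 35 of 57 cases (61.4%, against 59.8%). Exons over 200 and up to 400 nt did so in 12 of 55 (21.8%, against 18.1%). Of the 252 exons up to 200 nt, 10 held one (3.97%, against 7.44%). A longer exon offers more bases for a peak, and per nucleotide the order differs at the top. Intervals covered 32.1% of the bases of exons over 1000 nt (23.6% over all genes). They covered 43.2% of those over 400 and up to 1000 nt (36.2%), and 3.38% of those up to 200 nt (7.01%). The order was thus the same over all genes. Exons over 1000 nt held 71.6% of the exon bases of these members, against 54% for all genes, and 68.9% of their placed intervals (61.5 to 75.5), against 49%. In the members the share of intervals in such exons was thus near the share of bases there.

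**Figure D3:**
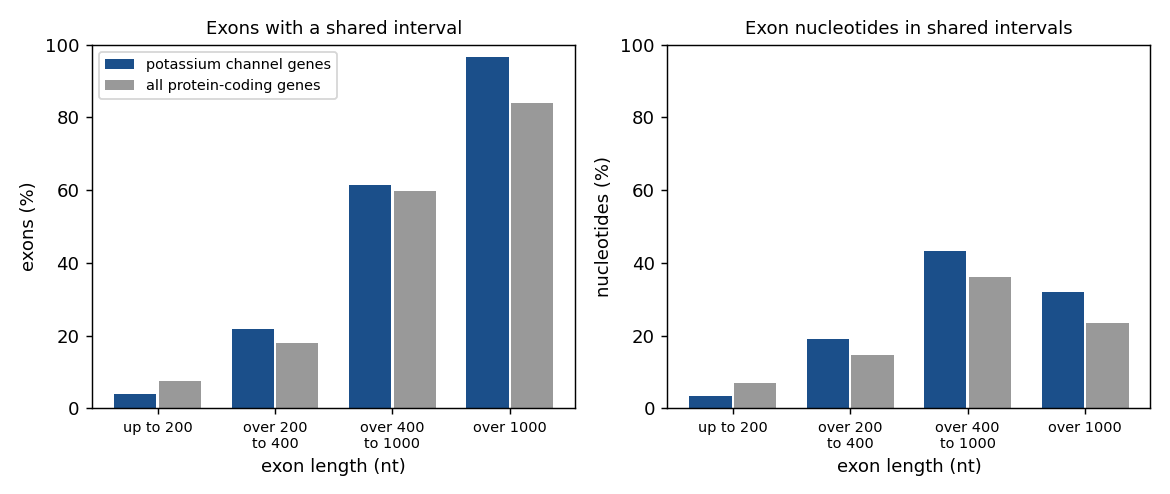
Share of exons with a shared interval (left, %) and of exon nucleotides inside shared intervals (right, %) by exon length class (nt), for the 61 potassium channel genes with intervals (blue) and all protein-coding genes with intervals (grey). In exons over 1000 nt the member bar is at 96.5% on the left and 32.1% on the right, and for exons up to 200 nt at 3.97% and 3.38%. The grey bars of the same classes are at 83.9% and 23.6%, and at 7.44% and 7.01%.

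Potassium channel genes range from a single coding exon to many, and were split by that number. Shared intervals were found in 15 of 20 members with 1 coding exon (75%), against 22.4% of all genes of that kind. They were found in 23 of 36 with 2 to 4 coding exons (63.9%, against 41.3%), in 9 of 12 with 5 to 9 (75%, against 44.4%) and in 14 of 20 with 10 or more (70%, against 60.2%). The members' share was above that of all genes in each class, with the smallest gap in the class of 10 or more. The stop codon was covered in 86.7%, 82.6%, 77.8% and 71.4% of the members with intervals in these classes, against 63.2%, 57.5%, 51.4% and 46.7% of all genes. Exons over 1000 nt held 95.3% of the intervals of members with 1 coding exon and 38.9% of those with 10 or more. Over all genes of these classes the shares were near these, at 89.5% and 37.8%. The median ratio in the class of 10 or more was 2.68 in replicate 1 and 2.19 in replicate 2, below the 3.48 and 2.8 of members with 1 coding exon, an order that all genes had too (2.85 and 2.21 against 3.9 and 2.77).

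Aligned coding sequences showed where intervals of paralogs coincide in some subfamilies and not in others. Intervals covered 40.1% of the CDS bases of members with intervals (23.3% for all genes), and coincidence beyond this coverage was not tested. In Kcna all 6 members with intervals were covered at 306 alignment columns, which in Kcna1 lie between bases 744 and 1488 of a 1488-nt CDS. In Kcnj all 10 were covered at 81 columns, at bases 872 to 955 of the 1140-nt CDS of Kcnj10. In Kcnq all 3 were covered at 267 columns. In Kcnd all 3 were covered at 191 columns near the beginning, bases 326 to 525 of the 1956-nt CDS of Kcnd1. All members with intervals were also covered together at some columns in Kcnb, Kcnc, Kcng, Kcnh and Kcns. In Kcnab at most 1 of the 3 members with intervals was covered at any column, and in Kcnn at most 2 of 3. Of the 9 tandem-pore genes with intervals, Kcnk6 and Kcnk9 had none over coding bases. The other 7 were all covered at the 3 columns of the stop codon and at no other column. Identity between aligned coding sequences ran from 61.9 to 74.8% in Kcna, from 43.5 to 75.2% in Kcnj and from 39.5 to 68.3% in Kcnk, so columns of the latter groups are less certain.

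**Figure D4:**
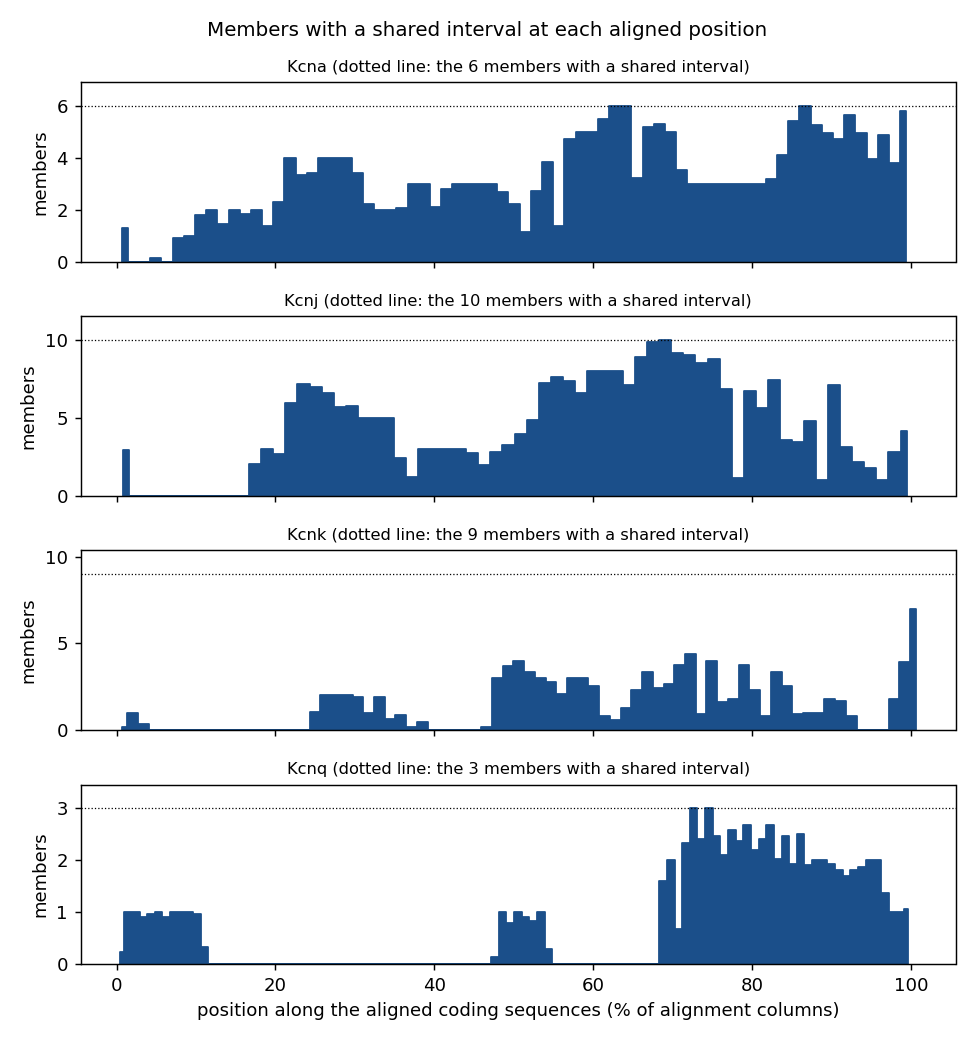
Number of members covered by a shared interval (y axis, mean over bins of 30 alignment columns) along the aligned coding sequences (x axis, % of alignment columns) of Kcna, Kcnj, Kcnk and Kcnq genes, with a dotted line at the number of members with an interval. The line is reached in Kcna (6), Kcnj (10) and Kcnq (3), in the later part of the coding sequence, and not in Kcnk (9), where 7 members have an interval over coding bases.

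Motif content was compared with that of all genes. GGACT was present in 54.3% of the 164 placed intervals (46.6 to 61.7), against 39.3% over all genes, or 48.4% when the latter were weighted to the lengths of the member intervals. GGAC, which includes GGACT, was present in 85.4%, against 76.7%, or 84.6% at member lengths. Of 304 GGACT in the mRNAs of the 61 members, 144 lay inside shared intervals (47.4%), against 28.8% for all genes. Intervals covered 29.8% of the bases of these mRNAs, against 19.8%. The density of GGACT was 1.76 per kb inside intervals and 0.831 per kb outside (1.61 and 0.981 for all genes). By region, the density inside intervals was 2.17 per kb in the 3′ UTR and 1.42 per kb in the CDS of members, against 1.89 and 1.47 for all genes. Intervals covered 40.1% of their CDS bases, against 23.3% for all genes, and 21.2% of their 3′ UTR bases, against 15.3%.

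Both replicates ranked the peaks of these genes in a similar order. Of 226 exonic peaks in replicate 1, 181 (80.1%, 74.4 to 84.8) overlapped a replicate 2 peak, against 67.7% for all genes. Of 219 in replicate 2, 174 (79.5%, 73.6 to 84.3) overlapped a replicate 1 peak, against 76.7%. The median ratio of shared peaks was 3.29 in replicate 1 and 2.47 in replicate 2, against 2.96 and 2.3 for all genes. These gaps to all genes are smaller than the gap between the replicates. Peaks found in 1 replicate only had medians of 2.3 and 1.85. Across 170 pairs of peaks that are each other's best partner, Spearman's rho was 0.689 and Pearson's r of the log2 ratios 0.696, given as a description of 1 pair of samples whose peaks share library and input. Replicate 1 was higher in 136 of the 170 pairs (80%), against 78.2% for all genes.

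**Figure D5:**
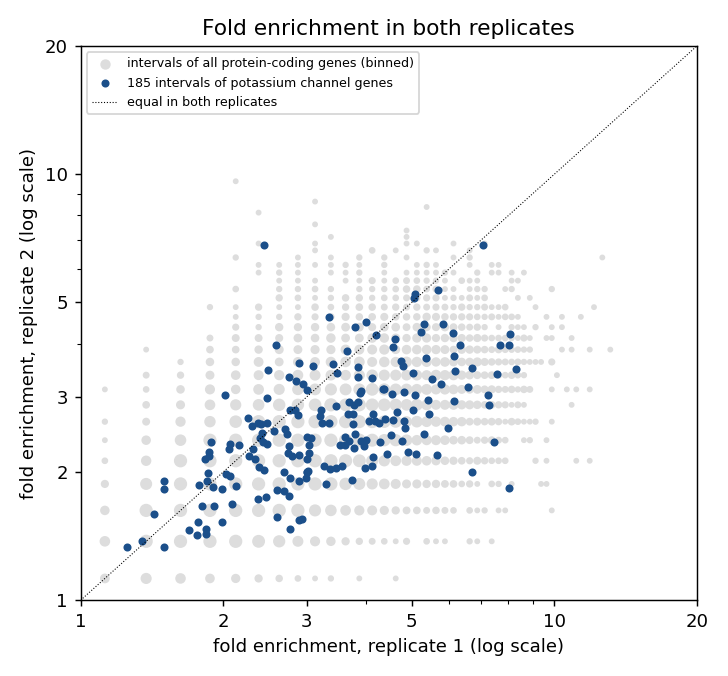
Fold enrichment in replicate 1 (x axis, log scale) and replicate 2 (y axis, log scale) of the 185 shared intervals of potassium channel genes (blue), over those of all protein-coding genes in bins (grey, larger points for more intervals), with a dotted line of equal values. Most blue points lie under the line, and the interval of Kcnb2 at 7.07 and 6.81 stands highest on it.

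Peaks wholly inside introns of members were far more frequent in replicate 1 (49) than in replicate 2 (5), and 3 intervals were shared. In the whole series, 31984 of 38533 replicate 1 peaks and 28265 of 30134 replicate 2 peaks overlapped exons of protein-coding genes. Replicate 1 thus had more peaks outside such exons in the series as a whole too. Among the 3 shared intronic intervals, the one in Kcnd2 (chr6:21448283-21448482, 5.37 and 3.02) lay 230870 nt from the nearest exon of the gene. The one in Kcnq3 (chr15:66255910-66256093, 2.97 and 2.5) lay 26980 nt away. No read of these intronic peaks can be assigned to a strand. Of the exonic intervals, 16 overlapped an exon of another gene, and in 3 members (Kcnj13, Kcnk4 and Kcnmb4) every interval did.

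Genes that work with these channels were read from a separate list. Of 10 pore-forming relatives 4 had shared intervals, a share near the 45.6% of all protein-coding genes, among them Hcn2, Hcn3 and Hcn4, which carry the hyperpolarization-activated current, while the 6 cyclic nucleotide-gated channel genes had no exonic peak. Hcn4 had 4.43 and 4.13 in its strongest interval and Hcn2 3.79 and 2.7. Of 13 auxiliary or partner genes 9 had shared intervals, beside the same 45.6%, with no test. Among these, Amigo1, a partner of Kv2 channels, had 7.91 and 3.72, and Dpp10, a partner of Kv4 channels, had 4.68 and 3.24. Abcc8 and Abcc9, the sulfonylurea receptors that join Kcnj8 and Kcnj11, had peaks in 1 list only, unlike both pore genes.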

How the data were processed

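Peak lists of 2 m6A IP samples of mouse whole brain were used. By the methods given for the study, reads were trimmed by the authors, who aligned them to mm10, kept uniquely mapped reads and called peaks with MACS2 for each IP sample against its own input, with duplicates kept and without pooling. The submitters' processing notes name TopHat2 2.0.9 and MACS2. The deposited value of each peak is a linear fold ratio, IP signal divided by input signal. Keeping duplicates can raise ratios built on few molecules. Depth is not given in the sources used here.

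Coordinates were read with both ends counted, on GENCODE M21 (GRCm38, which has the mm10 sequence). Peaks overlapping by at least 1 bp were shared. The 38533 and 30134 peaks gave 23901 shared intervals. Midpoints on exactly 1 representative transcript (longest CDS, 21866 genes) were placed. Motifs were read from the spliced transcripts. Coding sequences were aligned with mafft 7.526. Python 3.11.15, pandas 2.3.3 and scipy 1.17.1 were used, and overlaps were checked on simulated peaks.

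No test was made. Members and lists were chosen with earlier results of these data known. Named genes were the strongest member of each subfamily, the 10 strongest members, the 5 with most intervals, all members of 7 subfamilies by number of intervals, members without peaks, and the 5 strongest peaks of 1 replicate. GGAC windows, aligned positions and examples outside this rule were chosen after their values were seen. Alternatives were other definitions of overlap, filters, windows, motifs and transcripts. No sequence of chromosome 18 was printed. Some genes enter the counts but are not reported by name or drawn here.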

Additional observations from a re-analysis of the deposited data

How the results depend on the processing

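Each result was recomputed with another definition of overlap, a filter requiring ratios of 2 or more, merging of peaks within 100 bp, another transcript choice and each replicate alone, 62 values in all. Of these, 53 stayed within the 95% interval of the share or correlation, within the SD of both replicates' medians (0.586) or within 1.5 times a count. From single replicates the members with a peak numbered 65 to 69, intervals 219 to 226, the CDS share was 51.8 to 53.1%, the share near the stop codon 14.1 to 18.1%, that in exons over 1000 nt 62.5 to 68.4%, and that with GGACT 50.5 to 51.8%. The other 9 changed as follows. Counting any base raised the CDS share from 54.3 to 64.6% and the share within 200 nt of the stop codon from 17.1 to 36%. Windows of 100 and 400 nt gave 9.76 and 32.3%. The filter at 2 raised the share in exons over 1000 nt to 78.1% and lowered rho to 0.469, over a narrower range of ratios. A limit of 400 nt gave 89%. GGAC gave 85.4%, and GGACT within 50 nt of the midpoint 20.1%. No paired analysis was possible because the input samples had no processed files here and no groups were compared. Depth is unknown, so weak or absent peaks cannot be told from low expression.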
